A study of Mus musculus with 2 samples.

Results

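The 9 miRNA genes described here are Mir139, Mir149, Mir185, Mir423, Mir342, Mir151, Mir140, Mir186 and Mir335, which each lie alone inside a protein-coding host gene. They are 9 of the 2202 annotated miRNA genes in the tables, chosen by name and host, with their levels and differences in these libraries already known. They are also 9 of 589 genes that the annotation places alone in an intron of a coding transcript, where alone means that no other miRNA gene lies on the same strand within 10 kb. MicroRNA-seq (total RNA, size range below 30) was run on hearts from adult males of the mouse strain 5xFAD/CAST at 8 to 10 months of age. The labels form a single group of 2 libraries, called replicates 1 and 2. 5xFAD is a transgenic model of brain amyloid deposition, whose transgenes are driven in neurons by the Thy1 promoter, and CAST is a wild-derived inbred strain. The labels give neither the transgene status of each library nor untransgenic animals to set against them. Both libraries carry the same donor entry and different biosample entries, so their differences may be technical, and no comparison between conditions was possible.

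An intronic miRNA hairpin is cut out of the host's primary transcript by the nuclear enzyme Drosha, and Dicer then makes the mature miRNA, which pairs with target mRNAs through its seed. A hairpin on the host's strand can be made from the host's own promoter, although some intronic hairpins also have a promoter of their own. Host mRNA was not measured here, so the levels below are those of the hairpin genes alone.

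The seed is the stretch of bases 2 to 8 of a mature miRNA that selects targets. RefSeq (build GRCm38.p6) held hairpin entries for 8 of the 9 genes, all at the GENCODE coordinates, and 14 mature sequences of those 8 genes, with both arms for 6 of them. The 14 seeds compared were all distinct. The only entries of Mir140 and Mir185 were miR-140-3p and miR-185-3p, so seeds of their other arms were not compared. The mature sequences are shown, with seeds in capitals, because each gene's reads come from its 2 arms together. Mir151 is named only.
miR-139-5p: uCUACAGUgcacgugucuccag
miR-139-3p: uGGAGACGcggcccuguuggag
miR-149-5p: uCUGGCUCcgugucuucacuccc
miR-149-3p: gAGGGAGGgacgggggcggugc
miR-140-3p: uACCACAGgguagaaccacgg
miR-423-5p: uGAGGGGCagagagcgagacuuu
miR-423-3p: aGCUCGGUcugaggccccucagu
miR-185-3p: aGGGGCUGgcuuuccucuggu
miR-342-5p: aGGGGUGCuaucugugauugag
miR-342-3p: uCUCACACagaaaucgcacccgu
miR-335-5p: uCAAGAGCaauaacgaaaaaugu
miR-335-3p: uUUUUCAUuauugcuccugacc
miR-186-5p: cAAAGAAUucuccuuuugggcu
miR-186-3p: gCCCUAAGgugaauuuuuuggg

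Of these 14 seeds 4 occur in a mature miRNA of another mouse gene, against 32.0% of all 1738 mature entries. The seed of miR-149-3p is shared with miR-7016-5p, miR-1943-5p and miR-6967-5p, and of these only Mir1943 was detected, at 6.32 ± 0.571 CPM with 23 counts in replicate 1 and 34 in replicate 2. The sequence of miR-6967-5p is listed at both Gm27775 and Gm27740, which had 0 counts each. Reads aligned to several places went to no gene, so these counts cannot show whether miR-6967-5p was absent. The seeds of miR-140-3p, miR-423-5p and miR-185-3p are shared with miR-497b, miR-6921-5p and miR-7048-5p, whose genes had at most 1 count in either library. The 10 other seeds, both of Mir139, Mir342, Mir335 and Mir186 among them, had no partner in the table.

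The counts belong to whole hairpins and do not tell the arms apart. The hairpins of the most abundant pair, Mir139 and Mir149, and of Mir423, which has the longest hairpin of the 9, are printed with both mature arms in capitals.
Mir139: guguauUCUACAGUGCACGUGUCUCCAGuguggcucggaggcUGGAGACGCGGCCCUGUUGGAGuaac
Mir149: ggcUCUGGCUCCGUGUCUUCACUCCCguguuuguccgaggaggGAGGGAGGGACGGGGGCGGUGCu
Mir423: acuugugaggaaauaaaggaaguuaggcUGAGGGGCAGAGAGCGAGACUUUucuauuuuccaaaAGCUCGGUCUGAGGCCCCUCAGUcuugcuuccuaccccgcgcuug
The arms are separated by 14, 17 and 13 bases in Mir139, Mir149 and Mir423. The hairpins differed widely in composition, with 68.2% G and C in Mir149 and 33.8% in Mir186, against a median of 51.4% over detected genes. Their predicted folding energy was between -0.45 and -0.61 kcal/mol per base, the lowest in Mir151, and its median of -0.52 compares with -0.43 over detected genes.

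Replicate 1 held 3889280 sense counts and replicate 2 held 5058613. Levels are given as CPM, counts scaled to the sense total of the library. They were not divided by hairpin length, since a read covers a single mature miRNA. Differences between sequences in how well they enter a library were not corrected. Reads aligned to several places made up 42.3% and 46.8% of the tables and went to no gene. Heart muscle hairpins were present, with Mir208a and Mir499 together at 6617 CPM in replicate 1 and 7374 CPM in replicate 2. Of 11 marker genes 9 were detected, that is, had at least 10 counts in both libraries. Among the 9 was the liver marker Mir122, with 112 counts in replicate 1 and 137 in replicate 2. The brain markers Mir124a-1 and Mir9-1 had 0 counts and 0 and 1 counts. Reads that they share with other loci went to no gene, so these counts cannot show whether their mature miRNAs were absent. For a gene listed at 0, up to 3 counts remain possible, equal to 0.771 CPM in replicate 1 or 0.593 CPM in the other library. This bound leaves out reads aligned to several places. In a bulk tissue, fewer cells of a type and less RNA per cell cannot be told apart.

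All 9 genes were detected, against 14.8% of the 2202 genes in the tables, a share that describes the choice of members and is no result. Together they held 411403 counts in replicate 1 and 366922 in replicate 2. Their summed share of sense counts was 10.6% in replicate 1, with a 95% Clopper-Pearson interval of 10.5 to 10.6. In replicate 2 it was 7.25%, with an interval of 7.23 to 7.28, and the mean was 8.92% ± 2.35 (SD, n = 2). Mir139 and Mir149 held most of it, summing to 9.13% in replicate 1 and 5.65% in replicate 2, while the other 7 genes summed to 1.45% in replicate 1 and 1.60% in replicate 2. The difference between the libraries in the sum thus came from the abundant pair. The intervals cover counting error only, since PCR reads without molecular identifiers are not independent molecules.

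**Figure D1:**
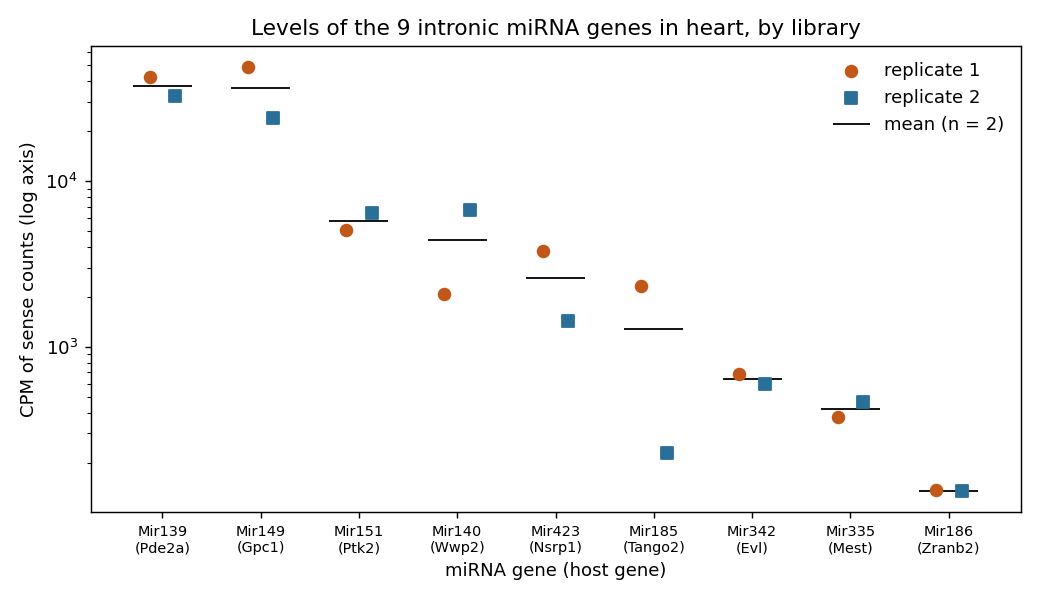
Level of each of the 9 miRNA genes in CPM of sense counts (log axis), with the host gene under its name. Circles are replicate 1, squares replicate 2, and bars the mean of both. The pair at the left stands at 23926 CPM or above in both libraries, and the points of Mir185, 2330 and 229 CPM, lie farthest apart.

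The levels covered a wide range. Mir139 averaged 37568 ± 7051 CPM and Mir149 averaged 36345 ± 17563 CPM (SD, n = 2 here and below), and their values overlapped, with Mir149 first in replicate 1 and Mir139 first in replicate 2. Then came a gap of 6.31 times to Mir151 at 5756 ± 961 CPM. Mir140 at 4404 ± 3291 CPM, Mir423 at 2607 ± 1660 CPM, Mir185 at 1280 ± 1486 CPM and Mir342 at 643 ± 62.4 CPM followed, each overlapping its neighbour in this order. Mir335 at 419 ± 63.0 CPM lay below Mir342 in both libraries, and Mir186 at 136 ± 1.67 CPM was the lowest in both. The median of the 9 was 2607 CPM, against 49.2 CPM over the 325 detected genes. The members were chosen with their levels known, so this comparison describes the choice and is no result. By mean CPM Mir139 ranked 11 and Mir186 ranked 119 of all genes.

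Differences between the libraries are given below as the level in replicate 1 over that in replicate 2 after TMM scaling, a normalization that sets the bulk of genes equal, so the folds differ a little from ratios of CPM. Where replicate 2 was the higher, the inverse is given and replicate 2 is named. Each fold has a 95% interval for counting error only. No test was made, because the members were chosen with these ratios known and each side is 1 library. Instead each gene is set against a 2-fold threshold. It applies to the log2 ratio of levels plus 1 CPM, so that ratios of low genes come out too small. Of the 325 detected genes 11.1% lay past it in either direction, with 3.08% higher in replicate 1 and 8.00% in replicate 2. Among the 134 of at least 100 mean CPM, a level that all 9 genes reach, 14.9% lay past it. Of the 9 genes 3 lay past it, Mir185 and Mir423 higher in replicate 1 and Mir140 higher in replicate 2, and nothing is read from that share. At 1.5-fold, which 30.2% of detected genes passed, Mir149 joined them in replicate 1.

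Among genes within hosts of cell signalling and adhesion, Mir139 lies in Pde2a, a phosphodiesterase that breaks down cAMP and cGMP. Its hairpin (ENSMUSG00000065446.1) is on chromosome 7 of mm10 from 101475376 to 101475443 on the plus strand, in intron 2 of 30 of the longest coding transcript that spans it. A second coding gene model, Gm45837, also spans the hairpin. Mir139 had 165502 counts (42553 CPM) in replicate 1 and 164819 counts (32582 CPM) in replicate 2. It was 1.20-fold higher in replicate 1 (1.19 to 1.21), well inside the threshold, and its coefficient of variation over the libraries was 18.8%.

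Mir149 lies in Gpc1, a glypican, which is a heparan sulfate proteoglycan anchored at the cell surface. The hairpin (ENSMUSG00000065470.1) is on chromosome 1 from 92850378 to 92850443 on the plus strand, in intron 1 of 8. Mir149 had 189654 counts (48763 CPM) in replicate 1 and 121032 counts (23926 CPM) in replicate 2, and was 1.87-fold higher in replicate 1 (1.86 to 1.89). With scaling by total counts alone its log2 ratio was 1.03 in place of 0.91, past 2-fold, while the median log2 ratio over detected genes went up by 0.12 under that scaling. Set against that median, Mir149 kept about the same position.

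Mir151 lies in Ptk2, the gene of focal adhesion kinase, with which human miR-151 has been studied in liver cancer. The hairpin (ENSMUSG00000065612.1) is on chromosome 15 from 73254815 to 73254882 on the minus strand, in intron 23 of 33, and a gene model of type antisense, 1700085D07Rik, is annotated on the other strand. Mir151 had 19743 counts (5076 CPM) in replicate 1 and 32557 counts (6436 CPM) in replicate 2. It was 1.38-fold higher in replicate 2 (1.35 to 1.40). Its hairpin shares up to 21 bases with a transcript of Klf3 and 17 with Mir28c, the longest shared stretches among the 9, so a part of its reads may have gone to no gene.

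Mir342 lies in Evl, an actin regulator of the Ena/VASP family. The hairpin (ENSMUSG00000065436.1) is on chromosome 12 from 108658620 to 108658718 on the plus strand, in intron 3 of 13. Mir342 had 2673 counts (687 CPM) in replicate 1 and 3030 counts (599 CPM) in replicate 2, and was 1.06-fold higher in replicate 1 (1.001 to 1.11). Mir342 thus stood at nearly the same level in both libraries.

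The next 2 genes lie in hosts of RNA processing. Mir423 is in Nsrp1, which encodes a splicing regulator of nuclear speckles, and miR-423-5p has been measured in human blood as a marker of heart failure. The hairpin (ENSMUSG00000065518.2) is on chromosome 11 from 77078064 to 77078172 on the minus strand, in intron 1 of 6, and begins 263 bases after the annotated start of the host, by far the nearest of the 9. Mir423 had 14705 counts (3781 CPM) in replicate 1 and 7249 counts (1433 CPM) in replicate 2. It was 2.43-fold higher in replicate 1 (2.36 to 2.50). Among the 134 detected genes of at least 100 CPM it had the second highest ratio.

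Mir186 is in Zranb2, a zinc-finger splicing factor. The hairpin (ENSMUSG00000065431.1) is on chromosome 3 from 157544279 to 157544349 on the plus strand, in intron 8 of 9. Mir186 had 532 counts (137 CPM) in replicate 1 and 680 counts (134 CPM) in replicate 2. Its fold, replicate 1 over replicate 2, was 0.936 (0.834 to 1.05), the only one of the 9 whose interval held 1, and it had the fewest counts. The interval left out 1 in the other 8 genes, in 58.8% of all detected genes and in 88.1% of those of at least 100 CPM. At these depths an interval without 1 is therefore usual.

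The 3 remaining genes differ in the function of their hosts, and 2 of them were the farthest apart of the 9 between the libraries. Mir185 lies in Tango2, whose loss in people causes metabolic crises with arrhythmia, and which sits in the interval deleted in DiGeorge syndrome. The hairpin (ENSMUSG00000065464.2) is on chromosome 16 from 18327401 to 18327465 on the minus strand, in intron 1 of 8. Mir185 had 9062 counts (2330 CPM) in replicate 1 and 1159 counts (229 CPM) in replicate 2. It was 9.35-fold higher in replicate 1 (8.80 to 9.95), the highest ratio among the 134 detected genes of at least 100 CPM. Mir26a-2, at 171 mean CPM, lay slightly farther apart in the other direction, with a log2 ratio of -3.28 against 3.22 for Mir185.

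The 3 genes of at least 100 CPM closest to Mir185 in ratio were far from it. They were Mir423, Mir208a and Mir99b, with log2 ratios of 1.28, 1.27 and 1.26, against 3.22 for Mir185. This likeness is measured over 2 libraries. Mir208a, which lies in an intron of the heart myosin gene Myh6, had 15109 counts in replicate 1 and 7513 in replicate 2, while the other heart muscle marker, Mir499, had 10625 and 29787, so the heart muscle markers went in opposite directions. Their part in the differences of Mir185 and Mir423 was not tested.

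Mir140 lies in Wwp2, a ubiquitin ligase, and is best known from cartilage, since mice that lack it have skeletal defects. The hairpin (ENSMUSG00000065439.1) is on chromosome 8 from 107551244 to 107551313 on the plus strand, in intron 16 of 23, and 1 further Wwp2 transcript that is not coding has an exon over it. Mir140 had 8075 counts (2076 CPM) in replicate 1 and 34050 counts (6731 CPM) in replicate 2. It was 3.53-fold higher in replicate 2 (3.44 to 3.61), and 6 of the 134 genes of at least 100 CPM had a lower ratio. Mir140 and Mir185, at 2076 and 2330 CPM in replicate 1, stood close to each other there and far apart in replicate 2.

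Mir335 lies in Mest, an imprinted gene expressed from the paternal copy, and human miR-335 is known as a suppressor of breast cancer spread. The hairpin (ENSMUSG00000065501.1) is on chromosome 6 from 30741299 to 30741396 on the plus strand, in intron 3 of 12 of the longest coding transcript. Mir335 had 1457 counts (375 CPM) in replicate 1 and 2346 counts (464 CPM) in replicate 2, and was 1.35-fold higher in replicate 2 (1.26 to 1.44). It had the only opposite-strand read of the set, 1 in replicate 1. For the other 8 genes the column that ignores strand equalled the sense column in both libraries, and no miRNA gene is annotated opposite any of the 9.

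**Figure D2:**
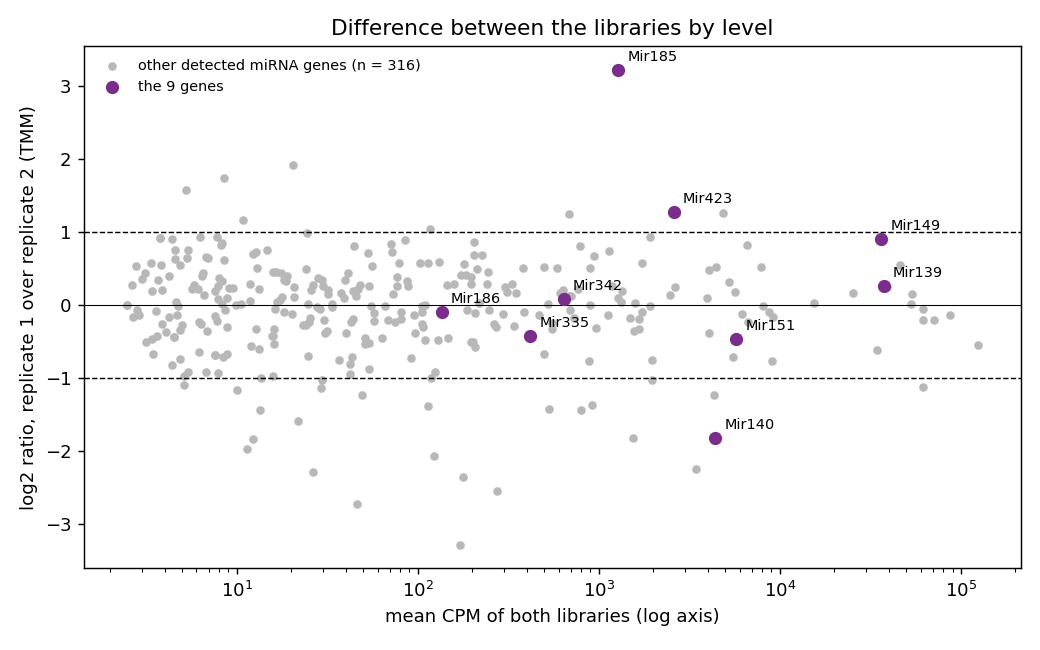
Log2 ratio of replicate 1 over replicate 2 after TMM scaling (vertical axis) against mean CPM (log axis) for the 325 detected genes. Purple points are the 9 genes, grey points the other 316, and dashed lines mark 2-fold. Mir185 and Mir423 lie above the upper line and Mir140 below the lower one, while the other 6 lie between them.

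Ratios of counts within a library do not depend on any scaling between libraries. Of the 36 pairs among the 9 genes, 30 kept their order in both libraries, and 23 had count ratios that differed at least 2-fold between them. Most of the 23 hold Mir185, Mir140 or Mir423, already named above as past 2-fold. Pairs over all detected genes were not counted, so nothing is read from these counts. The count ratio of Mir151 to Mir335 changed least, at 13.6 in replicate 1 (12.8 to 14.3) and 13.9 in replicate 2 (13.3 to 14.5). It is the lowest change of the 36 pairs, 9 of which changed under 1.5-fold. With 2 libraries it cannot show that these genes vary together. The count ratio of Mir140 to Mir185 changed the most. Mir140 had 0.891 counts per count of Mir185 in replicate 1 (0.865 to 0.918) and 29.4 in replicate 2 (27.7 to 31.2). The ratio thus changed 33.0-fold. Mir140 stood likewise at 0.549 counts per count of Mir423 in replicate 1 (0.534 to 0.564) and 4.70 in replicate 2 (4.58 to 4.82). Mir185 exceeded Mir342 and Mir335 in replicate 1 and lay below both in replicate 2.

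The choice of members fixed that each hairpin lies inside a coding host, and their places within the hosts varied. In the longest coding transcript that spans each hairpin, the introns were 1316 bases in Mest to 29902 bases in Pde2a. The nearest exon of that transcript was at least 206 bases away, so none of the hairpins fills that intron as a mirtron does. Over Mir140, 1 further Wwp2 transcript that is not coding has an exon. In 7 of the 9 hosts the hairpin lay past the midpoint of the gene, the exceptions being Mir423, at 0.930% of the host's length, and Mir185, at 43.7%. These places refer to the whole annotated gene. In Mest the transcript used begins at 58.2% of that length, and Mir335 lies at 71.4%. The same share over all genes alone in a coding intron was not computed. Intron 1 held Mir149, Mir185 and Mir423. Of these, Mir149 lies 18733 bases and Mir185 20638 bases after the annotated start of the host. All 9 shared under 20 bases with any other annotated hairpin, and 8 with any transcript outside their host.

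**Figure D3:**
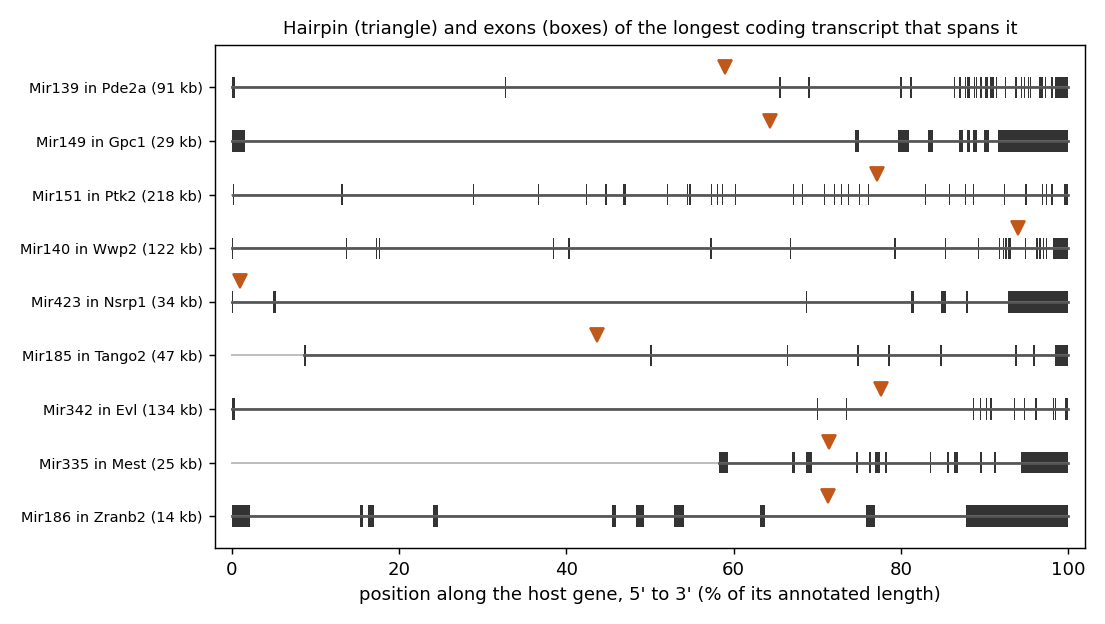
Place of each hairpin (triangle) along its host gene in percent of the host's annotated length, with the exons (boxes) of the longest coding transcript that spans it. The grey line is the whole gene and the dark line that transcript. The hairpin lies past the midpoint in 7 hosts, and near the start in Nsrp1.

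Of the genes alone in a coding intron, 99 of 589 were detected, and they took 42.7% ± 0.0619 of sense counts. Clustered hairpins in coding introns, with 34 of 187 detected, took 10.0% ± 1.35. Both shares leave out reads aligned to several places, and how those reads fall over the classes was not measured. The 9 genes were the source of 8.92 of the 42.7 percentage points, and Mir139 and Mir149 ranked 4 and 5 in the class, below Mir378a, Mir126a and Mirlet7g. The other 90 detected genes of the class had a median of 32.9 CPM, with 7 of them, or 7.78%, past 2-fold between the libraries, 3 higher in replicate 1 and 4 higher in replicate 2. The class share was thus nearly the same in both libraries, while the share of the 9 genes within it was higher in replicate 1.

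**Figure D4:**
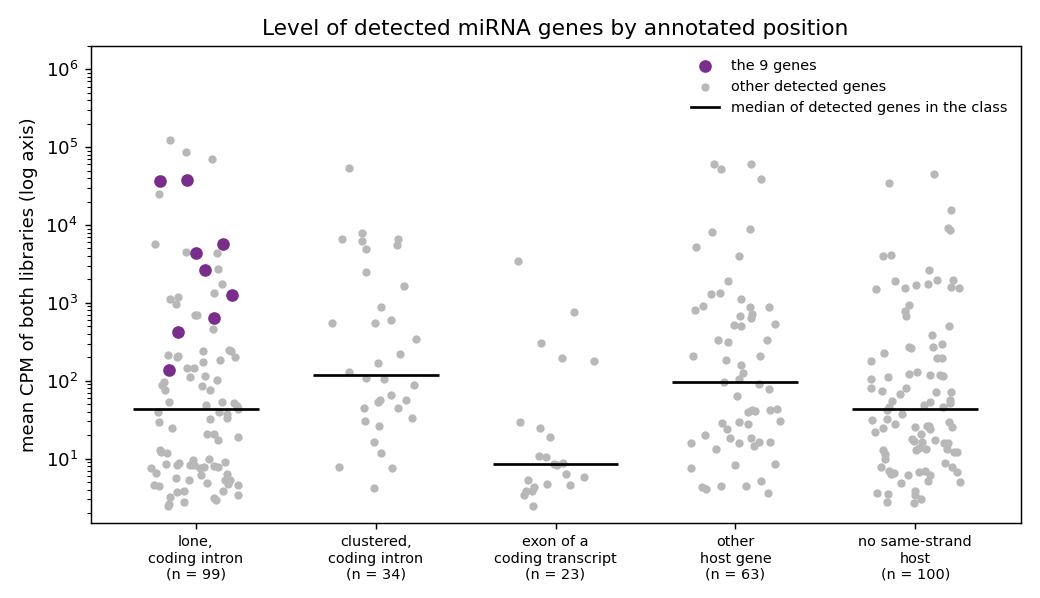
Mean CPM (log axis) of detected miRNA genes by annotated position, with a bar at the median of each class. Purple points are the 9 genes, all in the class of hairpins alone in a coding intron, and grey points are other genes. The 6 detected genes in coding genes with no coding transcript over them are left out of the plot. The 9 genes, which were chosen with their levels known, lie from 136 to 37568 CPM, above the class median of 43.9 CPM.

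A list of 27 other intronic hairpins with textbook host genes gives a frame for these values. Of them 24 were detected, with a median of 209 CPM, and together they held 1.90% ± 0.340 of sense counts. Mir328, Mir324 and Mir671 are in the list, although the annotation does not place them alone in a coding intron. Without them, 21 of 24 were detected, with a median of 206 CPM and 1.63% ± 0.265 of sense counts. The most abundant of the 27 was Mir652 in Tmem164 at 5667 ± 811 CPM, close to Mir151. Mir744, in the kinase gene Map2k4, stood at 4461 ± 1368 CPM, close to Mir140. Mir328 at 1734 ± 577 CPM, Mir28a, in the LIM protein gene Lpp, at 1731 ± 24.4 CPM and Mir361, in Chm, at 1336 ± 203 CPM followed. Of the 24 detected among all 27, 1 lay past 2-fold and none of these 5 did.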

How the data were processed

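The deposited tables hold raw read counts for 2202 miRNA genes per library, in a column that ignores strand and a column for each strand, with 4 summary lines that name no gene. Per the deposited description files, the authors used genome build mm10 and annotation GENCODE M21, while the aligner, counter and filters were not given in the sources used. The summary lines, 64.1% of reads in replicate 1 and 64.4% in replicate 2, stayed out of library sizes. Sense counts were the strand column with the larger total.

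The members and lists were chosen with earlier results of these data known. The text names the 9 members, the 5 most abundant of 27 listed intronic hairpins, the 3 genes of at least 100 CPM closest to Mir185 in ratio, and detected genes that share a seed. Mir26a-2 is named for its difference between the libraries, after its values were seen. CPM used sense totals. Ratios used TMM (edgeR 4.0.16, genes with a sum of at least 10) and 1 CPM added, and intervals are Clopper-Pearson (SciPy 1.17.1). Folding used ViennaRNA 2.7.2. The ratio step was tested on simulated counts with known folds and counting error only, which does not cover other variation between libraries. Positions came from GENCODE M21, and sequences from RefSeq. Shared stretches of 14 bases or more were searched in GENCODE transcripts on both strands, not in the genome. Alternatives were other scalings, added CPM, filters, columns, denominators, a 1.5-fold threshold and each library alone.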

Additional observations from a re-analysis of the deposited data

How the results depend on the processing

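The count of 3 genes past 2-fold was 3 under every scaling, added CPM, filter and column tried, except that it was 4 with total-count scaling, where Mir149 joined, and 4 at 1.5-fold. With no filter 67 of 2202 genes lay past 2-fold, against 36 of 325. The summed share of 8.92% was 11.6% in the column that ignores strand, whose total is smaller, and 3.19% of all reads. Without replicate 1 or 2 it was 7.25% to 10.6%. The log2 ratio of Mir186 was 0.025 with total-count scaling, against -0.095. The other 62 of 63 alternative log2 ratios kept their sign. No paired analysis was possible because the labels give a single group. Counts limit Mir186 most, and reads given to no gene limit all levels.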

Other observations

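Among the 27 listed intronic hairpins, Mir511, which lies in the macrophage mannose receptor gene Mrc1, was the only detected gene past 2-fold between the libraries. It had 20 counts in replicate 1 and 98 in replicate 2, a fold of 0.244 for replicate 1 over replicate 2 (95% interval 0.143 to 0.398, counting error only). The leukocyte markers Mir142 and Mir223 summed to 285 CPM in replicate 1, against 279 CPM in replicate 2. The part of leukocytes in the difference of Mir511 was not tested. Mir340, in Rnf130, had 112 and 228 counts a fold of 0.588 (0.464 to 0.740). Both genes were chosen after their values were seen.

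Mir33, which lies in the sterol regulator gene Srebf2, was near the detection limit of 10 counts, with 17 counts in replicate 1 and 27 in replicate 2. Mir211, in Trpm1, had 6 and 12 counts, Mir346, in Grid1, had 6 and 0, and Mir592, in Grm8, had 1 and 0. In GENCODE M21, 3 of the 27 were not alone in a coding intron: Mir324 and Mir671 overlap an exon of a coding transcript, of Dvl2 and Chpf2, and Mir328 has no annotated host on its strand.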
